A study of Mus musculus with 6 samples.

Results

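Of 60856 genomic regions with a peak of C/EBPα, IRF8 or JUNB in mouse macrophages, 751 had no C/EBPα or IRF8 peak in control cells and a peak of both factors after IL-4. They made up 1.23% of the regions. Regions were formed by merging the peaks of all 6 samples wherever they overlapped by at least 1 bp. The members were chosen by the C/EBPα and IRF8 peaks themselves, so that the presence and the scores of these peaks are given as a description, and the JUNB peaks, the position in the genome and the DNA sequence are what the choice did not use.

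The samples were bone marrow-derived macrophages (BMDMs) of wild-type mice aged 8 to 12 weeks. Marrow cells were differentiated for 6 days with L929 supernatant, a source of the growth factor M-CSF, and this was shared by every sample. Control cells received no IL-4, and the others were exposed for 1 h to 20 ng/ml of the cytokine. After a double crosslink (DSG, then formaldehyde), C/EBPα, IRF8 and JUNB were each immunoprecipitated and the DNA sequenced (ChIP-seq), with 1 sample per antibody and condition. A gain is therefore a peak called in the IL-4 sample and not in the control sample, with no replicate to measure its spread, and differences in depth or library kit between both samples cannot be told apart from IL-4.

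C/EBPα is a basic leucine zipper factor that, with PU.1, opens and maintains macrophage enhancers. IRF8 is a myeloid interferon regulatory factor that often binds next to PU.1 on composite ETS-IRF elements, and JUNB is an AP-1 subunit. IL-4 acts through JAK kinases on STAT6, which dimerizes, enters the nucleus and binds palindromes of TTC and GAA, most often with 4 bases between them. STAT6 itself was not measured in these samples.

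The following 200 bp windows, centred on 6 of the regions, are examples of the letters searched below. They were read from GRCm38 (mm10), plus strand, 5′ to 3′, and capitals mark matches to the 7 motifs described further on. Ppp2r3a had the highest lower score of the set, Jak2, Mrc1, Edn1 and Slc7a2 belong to lists of IL-4 and macrophage genes, and BB123696 had the highest JUNB score among the regions that also gained JUNB.
Ppp2r3a (chr9:101230125-101230324): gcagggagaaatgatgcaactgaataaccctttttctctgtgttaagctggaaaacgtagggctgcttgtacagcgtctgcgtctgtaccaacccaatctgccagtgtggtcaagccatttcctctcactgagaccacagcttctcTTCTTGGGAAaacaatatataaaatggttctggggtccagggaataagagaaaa
Jak2 (chr19:29239635-29239834): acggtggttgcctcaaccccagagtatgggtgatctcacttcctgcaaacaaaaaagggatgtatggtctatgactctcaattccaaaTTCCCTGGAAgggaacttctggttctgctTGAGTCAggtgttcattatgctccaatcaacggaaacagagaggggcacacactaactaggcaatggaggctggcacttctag
Mrc1 (chr2:14204524-14204723): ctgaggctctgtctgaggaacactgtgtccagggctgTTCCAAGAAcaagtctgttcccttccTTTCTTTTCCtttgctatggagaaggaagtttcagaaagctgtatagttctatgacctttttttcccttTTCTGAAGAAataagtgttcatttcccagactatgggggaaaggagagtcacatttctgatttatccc
Edn1 (chr13:42292136-42292335): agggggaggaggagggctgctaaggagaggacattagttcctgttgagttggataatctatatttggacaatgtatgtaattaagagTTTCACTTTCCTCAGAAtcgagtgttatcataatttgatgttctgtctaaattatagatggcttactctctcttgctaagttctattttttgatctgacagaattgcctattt
BB123696 (chr13:52818848-52819047): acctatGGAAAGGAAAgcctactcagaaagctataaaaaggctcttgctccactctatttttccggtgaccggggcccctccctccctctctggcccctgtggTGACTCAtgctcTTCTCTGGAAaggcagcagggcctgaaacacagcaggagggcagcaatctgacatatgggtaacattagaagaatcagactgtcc
Slc7a2 (chr8:40861619-40861818): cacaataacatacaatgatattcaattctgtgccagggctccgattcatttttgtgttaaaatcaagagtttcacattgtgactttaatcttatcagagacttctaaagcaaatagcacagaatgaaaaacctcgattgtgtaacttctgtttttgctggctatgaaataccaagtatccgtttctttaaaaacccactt

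The Ppp2r3a window held a single palindrome with 4 bases between TTC and GAA, at bases 147 to 156. The Jak2 window held such a site at bases 89 to 98 and an AP-1 site at bases 118 to 124. The Mrc1 window held 1 palindrome with a spacer of 3 bases and 1 with a spacer of 4 bases on either side of an ETS-IRF composite. In the Edn1 window an interferon-type element and a palindrome shared letters, at bases 88 to 97 and 95 to 104. The BB123696 window held an ETS-IRF composite, an AP-1 site and a palindrome with 4 bases of spacer, while the Slc7a2 window matched none of the motifs. The 4-base palindrome was thus in every window but that of Slc7a2, whereas 38.7% of all members held it. The windows therefore do not show how frequent it was.

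C/EBPα peaks were gained at 5263 regions (8.65% of all regions) and IRF8 peaks at 12650 (20.8%). The 751 regions were thus 14.3% of the C/EBPα gains and 5.94% of the IRF8 gains. Of the C/EBPα gains, 1657 (31.5%) lay where IRF8 had peaks in both conditions, 204 (3.88%) where IRF8 was lost, and 2651 (50.4%) had no IRF8 peak in either condition. Of the IRF8 gains, 1575 (12.5%) lay where C/EBPα had peaks in both conditions, and 10009 (79.1%) had no C/EBPα peak. IRF8 was lost at 7911 regions and C/EBPα at 5114. The IRF8 list was longer after IL-4 (42076 peaks) than in control (37525), while the C/EBPα lists had 24612 and 24486. Joint losses were not counted with lists of equal length, so their number cannot be set directly against that of joint gains. The opposite change, loss of both factors, was seen at 370 regions, and both factors had peaks in both conditions at 10819 regions. These last 2 sets stand beside the members below.

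The peaks of both factors overlapped each other directly in all 751 regions. Merging on overlap sets this in advance wherever a region consists of exactly 2 peaks, so it is a description of the rule. The peak centres, whose distance the overlap also limits, were a median of 49 bp apart. Of the pairs, 381 (50.7%) were within 50 bp and 598 (79.6%) within 100 bp, and the widest was at 326 bp. The regions had a median width of 314 bp (169 to 823 bp), and 699 of them (93.1%) consisted of exactly 2 peaks.

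Peak scores are −log10 significance values of the peak caller, an inferred scale. Over the members, the C/EBPα score after IL-4 ranged from 1.85 to 68.8 with a median of 7.03, and the IRF8 score ranged from 1.33 to 64.3 with a median of 7.12. Most of these peaks lay in the lower part of their lists. The C/EBPα score reached the median of its IL-4 list (11.2) in 189 regions (25.2%), and the IRF8 score reached its own (9.61) in 222 (29.6%). Both scores were at least 10 in 104 regions and at least 20 in 8 regions, whereas either score was under 5 in 344 (45.8%). C/EBPα had the higher score in 396 regions, so neither factor led throughout.

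**Figure D1:**
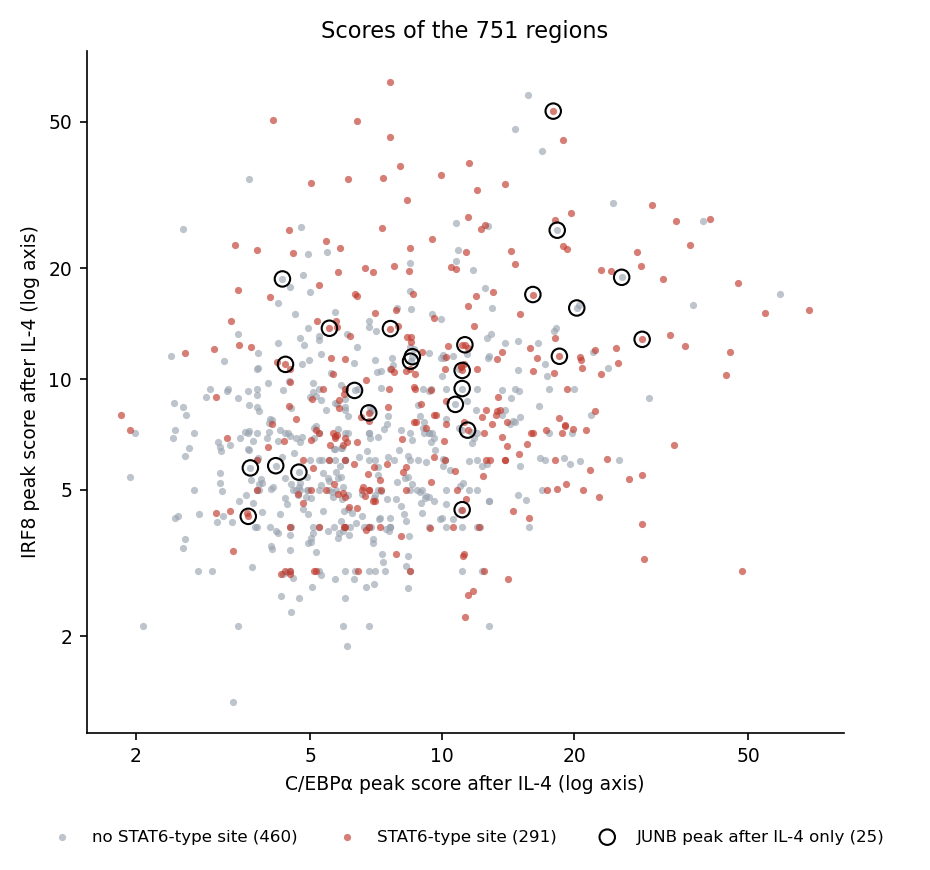
Peak score of C/EBPα (horizontal, log axis) against IRF8 (vertical, log axis) after IL-4 for each of the 751 regions, with 1 point per region. Red points hold a STAT6-type site (291), grey points hold none (460), and black rings mark the 25 regions with a JUNB peak after IL-4 only; red points are more frequent towards the upper right, where both scores are high.

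At the lower edge of the set, a region nearest to Jdp2, which encodes an AP-1 repressor, had scores of 6.06 for C/EBPα and 1.88 for IRF8. A region nearest to Ear14 had 1.85 and 8.00, and one nearest to 2010012O05Rik had 3.34 and 1.33. Just outside the set were regions nearest to Klhl25, Blvrb and Slc1a5, each left out through a weak IRF8 peak in control with a score of 1.31, 1.9 and 1.91. In all, 1657 regions failed only through an IRF8 control peak, 192 of them with a control score under 5, and 1575 failed only through a C/EBPα control peak, 157 of them under 5. The edge of the set thus rests on whether a weak peak was called.

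The 12 regions with the highest lower score were mostly far from a transcription start site (TSS). The first lay in intron 1 of 13 of Ppp2r3a, a regulatory subunit gene of protein phosphatase 2A, at chr9:101230036-101230413, with scores of 30.07 for C/EBPα and 29.70 for IRF8. The next, in intron 13 of 16 of Fxr1 and nearest to Dnajc19, a gene of the mitochondrial import machinery, had 40.78 and 27.31. A region in the long noncoding RNA gene Gm14005 (Morrbid in RefSeq), known for controlling myeloid cell lifespan, had 39.38 and 26.93. All 3 were intronic and 14533 to 21645 bp downstream of the TSS.

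Signalling and surface genes followed. A region 43185 bp downstream of the TSS of Gpr65, a proton-sensing receptor, had scores of 24.58 for C/EBPα and 30.12 for IRF8. One in intron 12 of 13 of Cd44, the hyaluronan receptor gene, had 23.10 and 19.84. A region 12147 bp upstream of Jak2, which encodes a cytokine receptor kinase, had 19.65 and 28.25 and lay on an MLT1O long terminal repeat (LTR). The others were nearest to 4933417E11Rik (34.21 and 26.92), Anxa3 (36.75 and 23.13), Zfp608 (27.91 and 22.10), 2310008N11Rik (28.51 and 20.27), Nmbr (24.29 and 19.69) and Reps1 (19.24 and 22.63). None of the 12 overlapped a JUNB peak, and 94.1% of all members had none. An LTR carried 4 of the 12 (9.19% over all members). The palindrome with 4 bases of spacer was in 10 (38.7% over all members).

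The 7 motifs were searched on both strands in the 200 bp around each region's centre, and every share is given beside that of all 60856 regions at the same length. They were the STAT6-type site (TTC and GAA, 4 bases apart), the STAT-type site TTCNNNGAA (3 apart), AP-1 TGANTCA, C/EBP TTGCNNAA, PU.1 GAGGAAGT, the ETS-IRF composite (GGAA and GAAA, 2 bases apart) and the interferon-type element ISRE (GAAA and GAAA, 2 bases apart). The motifs can overlap, and 32 members held both STAT forms. A match is a match of letters and not a bound site.

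The STAT6-type site stood out. It was present in 291 of the 751 regions (38.7%, Wilson 95% interval 35.3 to 42.3%), against 7.63% (7.42 to 7.84%) of all regions. Regions occupied by both factors in both conditions held it in 7.91% (7.42 to 8.44%), and regions that lost both factors in 2.7% (1.47 to 4.9%). The STAT-type site showed the same order at a lower level, with 16.1% (13.7 to 18.9%) of the members, 7.39% of all regions and 3.24% of the regions losing both. Either form was found in 380 members (50.6%), against 14.4% of all regions. Intervals here and below cover counting error only.

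The other motifs were less different. AP-1 sites were in 20.5% of the members (17.8 to 23.5%), 17.7% of the regions kept by both factors and 14.2% of all regions. C/EBP sites were in 19.6% (16.9 to 22.6%) of the members, 26.2% of the kept regions and 18.4% of all regions, which include regions without a C/EBPα peak. Among regions gaining C/EBPα they were in 32.2% without IRF8 and 10.2% on standing IRF8. In IRF8 gains on standing C/EBPα the share was 33.7%, and in regions losing both factors 23.5%. The ETS-IRF composite was present in 4.26% (3.03 to 5.95%) of the members, 10.9% of the kept regions and 10.8% of all regions. The share differed between other sets. It was 5.14% in the regions losing both factors. Among regions gaining IRF8 it was 2.54% on standing C/EBPα and 8.87% without C/EBPα. Among regions gaining C/EBPα it was 13.5% on standing IRF8 and 1.85% without IRF8. PU.1 sites were in 8.52% and ISRE in 4.93% of the members, against 10.6% and 7.6% of all regions. None of the 7 motifs was found in 26.5% of the members and in 42.3% of all regions. The median GC content of the windows was 45.0% in the members and 46.0% in all regions.

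**Figure D2:**
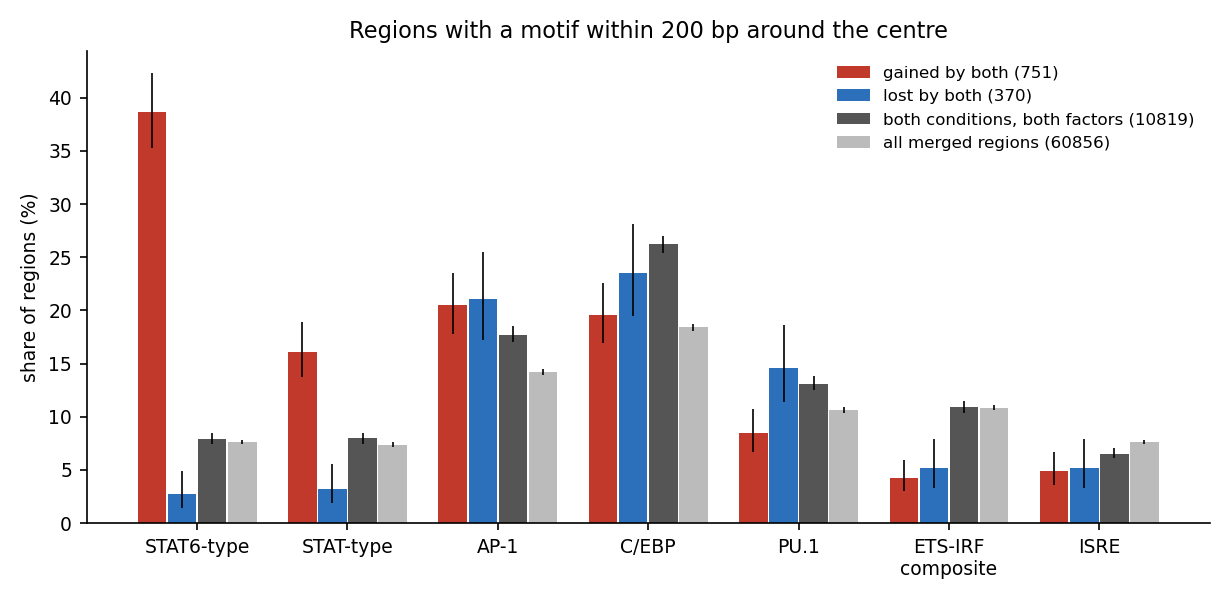
Share of regions (%) with each of the 7 motifs in the 200 bp around the region centre, for the 751 regions gaining both factors, the 370 losing both, the 10819 with both factors in both conditions and all 60856 regions. Bars start at 0 and error bars are Wilson 95% intervals; the STAT6-type share is 38.7% in the gained regions and at most 7.91% in the others.

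The share depended on the spacing. When the number of bases between TTC and GAA was varied from 0 to 10, the share of members with a match was 8.12% at 2 bases, 16.1% at 3, 38.7% at 4 and 5.33% at 5. Over all regions the corresponding shares were 7.02%, 7.39%, 7.63% and 6.35%. Smaller differences with intervals that did not overlap were seen at 7 bases (9.45% and 7.22%), 9 bases (9.99% and 7.63%) and 10 bases (11.7% and 7.85%). In regions losing both factors the 3-base and 4-base spacings, with 3.24% and 2.7%, were less frequent than the 2-base and 5-base spacings, with 7.57% and 8.92%.

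The sites also lay near the middle of the regions. Within 300 bp of the centre the members held 481 STAT6-type sites, of which 230 (47.8%) were within 50 bp and 45 (9.36%) beyond 200 bp. In regions kept by both factors, 20.6% of 2389 sites were within 50 bp and 28.9% beyond 200 bp. The kept regions were wider, with a median of 469 bp beside 314 bp for the members, and the effect of width on these positions was not tested. Per 20 bp, the members reached 7.86 sites per 100 regions next to the centre and fell to between 0.266 and 0.932 beyond 200 bp, where the kept regions had between 0.425 and 0.795. The kept regions reached at most 0.989 sites per 100 regions in any 20 bp.

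Most members with a site had just 1: in the 200 bp window 264 regions held 1 site, 26 held 2 and 1 held more. Their 319 sites took 73 different forms when both strands were written as 1, so that no single sequence dominated. The most frequent were TTCctaaGAA and TTCctcaGAA, with 20 sites each (6.27% of the members' sites), where capitals mark the palindrome and lower case the spacer. They made up 2.67% and 4.68% of the 4872 sites in all regions. TTCtgaaGAA had 14 sites, and TTCcaagGAA and TTCcagaGAA had 13 each.

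**Figure D3:**
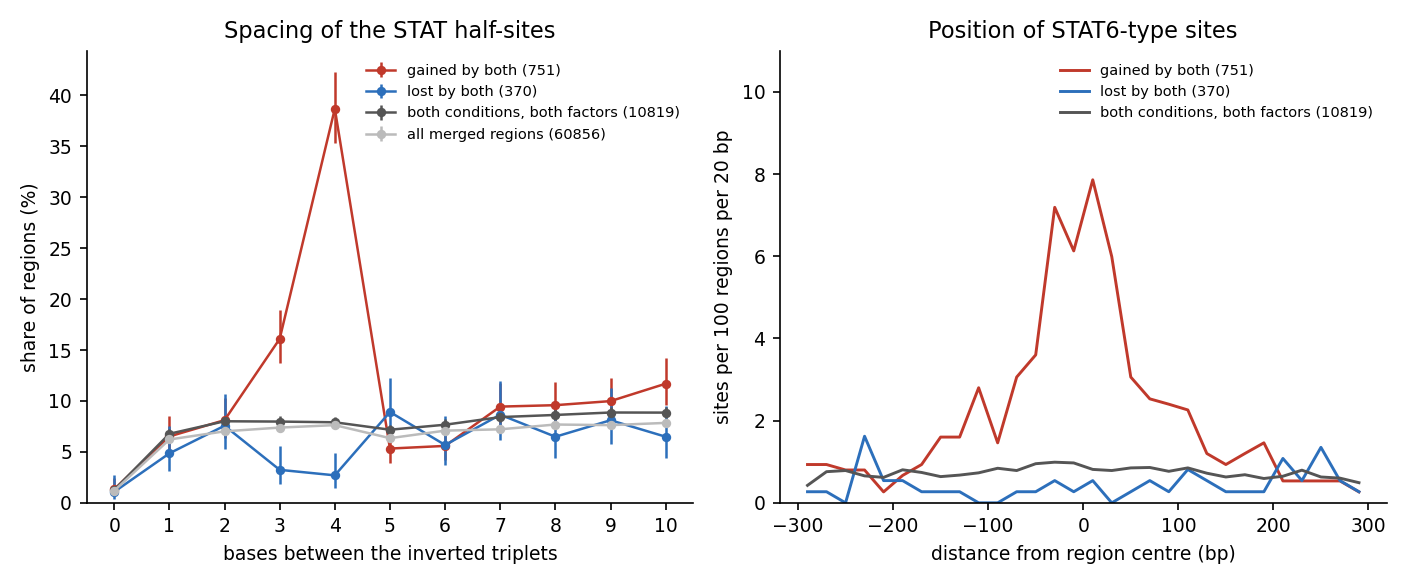
Left, share of regions (%) with TTC and GAA in the 200 bp window at each spacing from 0 to 10 bases, with Wilson 95% intervals, for 4 sets of regions. Right, STAT6-type sites per 100 regions in 20 bp bins against the distance from the region centre in bp, for 3 of the sets; the gained regions peak at a spacing of 4 bases (38.7%) and next to the centre (7.86 sites per 100 regions).

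The share was higher where both factors were gained than where a single factor was. Regions with a C/EBPα gain and no IRF8 peak held a STAT6-type site in 17.6% (16.2 to 19.1%), and those with a C/EBPα gain on standing IRF8 in 16.5% (14.8 to 18.3%). Regions with an IRF8 gain and no C/EBPα peak held it in 9.77% (9.2 to 10.4%), and those with an IRF8 gain on standing C/EBPα in 12.4% (10.8 to 14.1%). In regions where a factor was gained and the other lost the share was 3.92% (C/EBPα gained) and 3.49% (IRF8 gained). The intervals of the 751 regions overlapped none of these, although regions are not replicates and no test between conditions could be made with 1 sample each. The sets also differed in the median of the best score of any sample, which was 9.43 in the members. It was 5.64 for C/EBPα gains and 4.99 for IRF8 gains without the other factor. On a standing peak of the other factor it was 21.4 and 17.8, and where the other was lost 6.85 and 7.13. Shares at equal score were not compared between these sets.

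Within the members the share increased with the scores. Ordered by the lower of both scores and divided into 3 groups of 250, 250 and 251 regions, it was 23.6% (18.8 to 29.2%), 38.8% (33.0 to 45.0%) and 53.8% (47.6 to 59.8%). In regions kept by both factors it was 5.27%, 7.63% and 10.8% over the same ordering. Between lower scores of 5 and 10, a band that all sets share, the share was 45.5% of 303 members, 5.88% of 3453 kept regions and 2.76% of 145 regions losing both, the last ordered by control scores. Members with a STAT6-type site had median scores of 8.61 for C/EBPα and 8.26 for IRF8, and members without had 6.14 for both. C/EBP sites (18.6% and 20.2%) and the ETS-IRF composite (4.47% and 4.13%) were about as frequent with the site as without.

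JUNB had a peak after IL-4 in 33 members (4.39%), beside 3.8% of all regions and 12.6% of the regions kept by both factors. It had a peak in control in 19 members (2.53%), beside 6.43% of all regions and 20.9% of the kept regions. The JUNB lists were short, with 3940 peaks in control and 2325 after IL-4, and JUNB signal under the calling limit is not in them. By state, 25 members gained JUNB (3.33%, 2.26 to 4.87%), beside 1.47% of all regions, 3.46% of the kept regions and 0.811% of the regions losing both. JUNB was lost at 11 members (1.46%, beside 4.1% of all regions). It was kept at 8 (1.07%), beside 2.33% of all regions, 9.18% of the kept regions and 1.08% of the regions losing both. The kept regions had a median best score of 39.0, beside 9.43 in the members, and JUNB shares at equal score were not compared. The other 707 members (94.1%) had no JUNB peak, beside 92.1% of all regions and 93.8% of the regions losing both.

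Members that also gained JUNB had median scores of 10.7 for C/EBPα and 11.2 for IRF8, and those without JUNB had 7.02 and 6.93. AP-1 sites were in 10 of these 25 regions and STAT6-type sites in 13, and 16 of the 25 were among the 251 members with the highest lower score. The strongest JUNB gain, with a JUNB score of 10.60, was 61725 bp upstream of BB123696, where C/EBPα scored 7.62 and IRF8 13.72. A region in intron 5 of 17 of Pla2g4a, the cytosolic phospholipase A2 gene that releases arachidonic acid, had JUNB 7.81, C/EBPα 28.61 and IRF8 12.83. One downstream of Gda, the guanine deaminase gene, had JUNB 9.93, C/EBPα 20.29 and IRF8 15.61. The others were nearest to Mir3110 (JUNB 10.13), 4930488B22Rik (8.70), 4921513I03Rik (7.96), Adcyap1 (7.51) and 1600002D24Rik (7.43), and the 8 regions were all intergenic or intronic.

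At 11 members JUNB left while both other factors appeared. Of these, 7 (63.6%) held an AP-1 site, beside 20.5% of all members. A STAT6-type site was in 1 (9.09%), in intron 2 of 11 of Ankrd55, beside 38.7% of all members. The 8 members that kept JUNB included a region 2029 bp upstream of Lgals3, which encodes galectin-3, with JUNB scores of 12.81 in control and 12.76 after IL-4, and a region in intron 7 of 18 of Kdm1a, a histone demethylase gene, with 8.65 and 10.56. Both had an AP-1 site and no STAT6-type site. These regions beside the named JUNB gains were picked after their values were seen.

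The regions were mainly distal. HOMER placed 347 (46.2%, 42.7 to 49.8%) in intergenic DNA, 313 (41.7%, 38.2 to 45.2%) in introns, 62 (8.26%, 6.49 to 10.4%) at promoters and 17 (2.26%) in exons. Of all regions 41.4% were intergenic, 45.2% intronic and 9.01% promoter regions, and the regions kept by both factors had 46.3%, 45.1% and 5.22%. The median distance to the nearest TSS was 23259 bp, beside 19446 bp for all regions, 22144 bp for kept regions and 25588 bp for regions losing both. A TSS lay within 1000 bp of 77 members (10.3%, beside 12.6% of all regions), and 355 members were upstream of their nearest TSS. Repeats carried 137 members (18.2%, beside 22.0% of all regions), 69 of them LTRs (9.19%, beside 8.29% of all regions). A STAT6-type site was in 28 of these 69 LTR regions, close to the 38.7% of all members. A region kept by both factors lay within 10000 bp of 30.5% of the members, beside 25.3% of all regions, 25.7% of the regions losing both and 30.6% of the kept regions themselves.

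**Figure D4:**
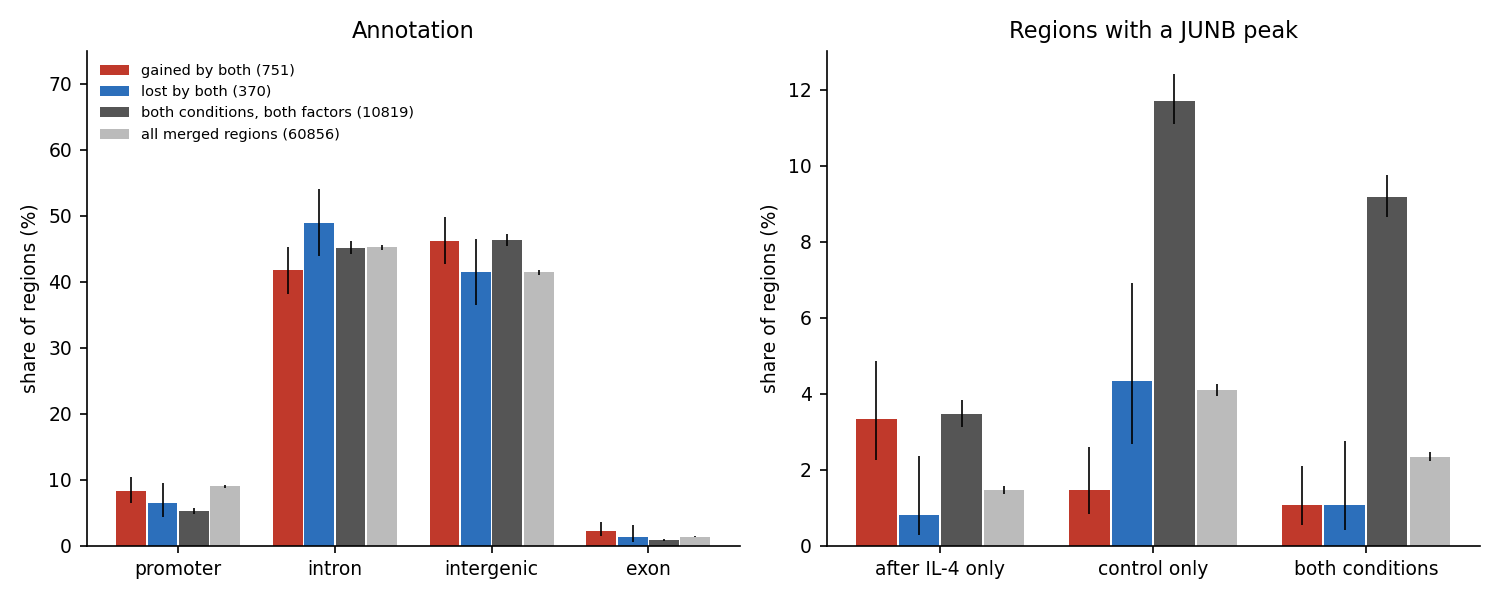
Left, share of regions (%) by HOMER annotation; right, share with a JUNB peak after IL-4 only, in control only or in both conditions, for the same 4 sets of regions. Bars start at 0 and error bars are Wilson 95% intervals. Promoters hold 8.26% of the gained regions. JUNB is kept at 1.07% of the gained regions and 1.08% of those losing both, against 9.18% where both factors have peaks in both conditions.

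Promoter members differed from the distal ones. Their median scores were 5.08 for C/EBPα and 4.96 for IRF8, against 7.62 and 7.13 for intergenic members. A STAT6-type site was in 5 of the 62 (8.06%), against 44.4% of the intergenic and 39.3% of the intronic members. Their windows had a median GC content of 54.5%, against 44.0% for the intergenic members. Along the ordering by lower score, promoters made up 14.8%, 7.2% and 2.79% of the 3 groups, and the median TSS distance was 16106, 25003 and 30878 bp.

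The promoter member with the highest lower score belonged to Slc7a2, a cationic amino acid transporter that supplies arginine to alternatively activated macrophages. It was centred 649 bp upstream of the TSS and had scores of 37.43 for C/EBPα and 15.91 for IRF8. The promoter of Itgb8, an integrin beta subunit gene, had 19.03 and 7.46 at 687 bp upstream and was the only one of the 6 highest promoter members with a STAT6-type site. The remaining 4 were at Gm4262 (10.12 and 11.44), Dnaic2 (14.67 and 9.43), 1700037C18Rik (9.05 and 9.43) and Cyb5r4 (7.07 and 13.53).

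Among 118 genes of 8 lists covering IL-4 responses and macrophage biology, 13 genes were nearest to 15 members. These were 1.34% of the 1117 regions nearest to listed genes, close to the 1.23% of all regions. The IL-4 effector genes had 4 members among 116 regions (3.45%) and no region losing both factors. The IL-4-responsive transcription factors had 6 members among 220 regions (2.73%) and 6 regions losing both. The signalling and feedback genes had 1 of 123, the macrophage lineage factors 1 of 249, the chemokines and growth factors 1 of 103, the inflammatory genes 1 of 139, the receptor and lipid genes 1 of 132, and the macrophage fusion genes 0 of 39. With counts this small the lists cannot be ranked.

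Among the effector genes, Mrc1, the mannose receptor of alternatively activated macrophages, had a region 24764 bp upstream, within Tmem236, with scores of 22.38 for C/EBPα and 12.02 for IRF8. Slc7a2, described above, was the second. Itgax, the gene of the integrin CD11c, had a promoter region 99 bp upstream of its TSS with 6.99 and 5.78, and a second one in intron 14 of 29 with 9.93 and 11.41. Both factors were thus gained at the start and within the body of Itgax.

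Among the transcription factor genes, Irf4, whose product acts in alternative activation, had a region 4598 bp upstream with 12.92 for C/EBPα and 13.26 for IRF8. Maf, a macrophage differentiation factor, had regions 138269 bp and 430451 bp downstream, with 9.50 and 14.99 at the nearer. Pparg, the lipid-sensing nuclear receptor, had a weak one in intron 5 of 6 with 2.96 and 9.43, and Klf4 had one 442864 bp upstream with 9.44 and 9.43. The histone demethylase gene Kdm6b was nearest to a region inside Dnah2 with 3.08 and 6.74, and Mitf had one in intron 2 of 9 with 6.11 and 7.96. None of these regions held a STAT6-type site, beside 38.7% of all members.

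Edn1, which encodes the vasoconstrictor endothelin-1 and stood in the list of chemokines and growth factors, had a region 9064 bp upstream that was much stronger for IRF8 (35.02) than for C/EBPα (6.09). Of the receptors, Tlr4, the lipopolysaccharide receptor, had a region 5857 bp upstream that was strong for C/EBPα (25.28) and weak for IRF8 (6.03). Csf1r, the receptor for M-CSF, had one 18461 bp upstream with 18.10 and 12.91 and a STAT6-type site. No listed gene's region overlapped a JUNB peak, and 94.1% of all members had none. Of the 15 regions, 5 held a STAT6-type site, at Csf1r, Edn1, Itgax, Jak2 and Mrc1, beside 38.7% of all members.

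The 751 regions had 682 different nearest genes, of which 625 had 1 region, 48 had 2 and 9 had 3 or more. Another member lay within 50000 bp of 91 regions and within 10000 bp of 26, so that most gains stood alone. The nearest gene is an assignment by distance and does not show which gene a region acts on. Members were present on every chromosome, from 0.748% of the regions of chromosome 18 to 1.55% of those of chromosomes 10 and 16.

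Cd44 had the most, with 5 of the 33 merged regions nearest to it. They spanned from 79877 bp upstream of the TSS to 78338 bp downstream, and included the 5′ untranslated part of exon 1, introns 1 and 5, and intron 12. At 284 bp from the TSS the scores were 6.30 for C/EBPα and 11.03 for IRF8, and in intron 5 they were 3.36 and 23.13. STAT6-type sites were in 3 of the 5, the distant ones. JUNB was at none of the 5, although 1 other region nearest to Cd44 gained it and 1 lost it.

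Dhrs9, a retinol dehydrogenase gene, had 3 of 13 regions, at 12548, 20579 and 70853 bp downstream, with 11.23 and 11.02 at the first. Sulf2, an extracellular sulfatase gene, had 3 of 14, none with a STAT6-type site and none with both scores at 5 or more. BB123696 had 3 of 17, and its strongest was the region that also gained JUNB. Dennd1b, an endosomal trafficking gene, had 3 of 24, with 33.20 for C/EBPα and 13.22 for IRF8 at 23063 bp upstream. Lyst, the lysosomal trafficking gene of Chediak-Higashi syndrome, had 3 of 27, all upstream.

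The other 3 genes lie in regions with many peaks. Gm14005 had 3 of 40, all within the transcript unit, and its strongest was the region described above. Zfp608 had 3 of 49, all between 97600 and 247777 bp upstream, and Gm20125 had 4 of 58 at 82320 bp upstream and 348949 to 587380 bp downstream. Over the 9 genes, 13 of the 30 regions held a STAT6-type site (38.7% over all members), and 1 of the 30 gained JUNB (3.33% over all members).

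**Figure D5:**
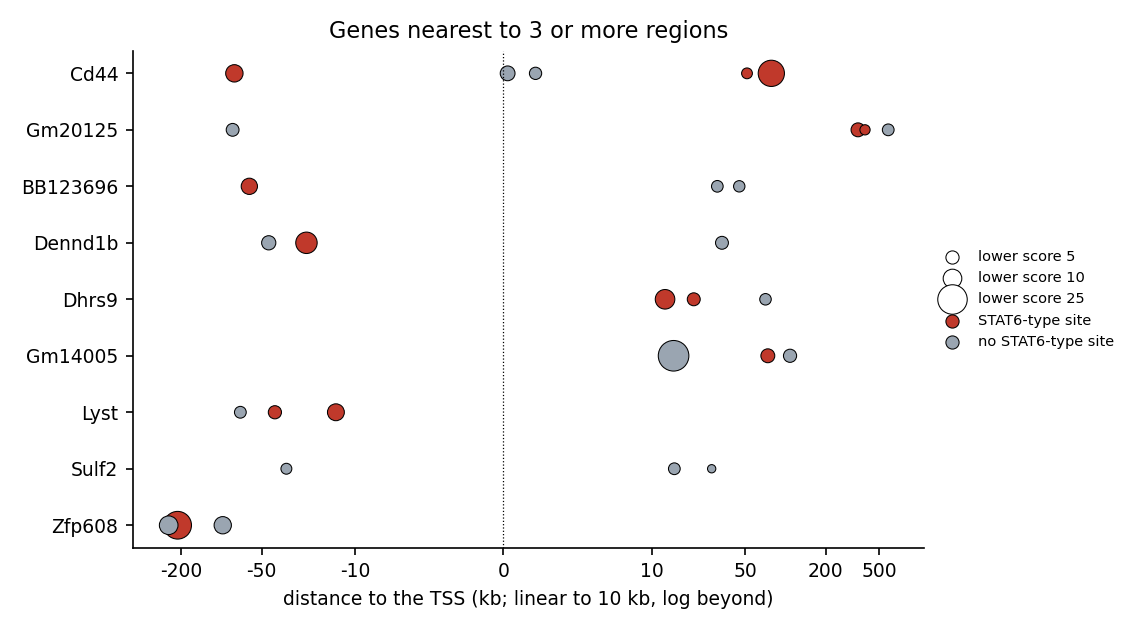
Position of the members of the 9 genes nearest to 3 or more regions, as distance to the TSS in kb (linear to 10 kb, log beyond; negative is upstream). Point area follows the lower of the C/EBPα and IRF8 scores after IL-4, red points hold a STAT6-type site and grey points do not; Cd44 has 5 regions on both sides of its TSS, and the largest points are at Gm14005, Zfp608 and Cd44.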

How the data were processed

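ChIP-seq peak lists of C/EBPα, IRF8 and JUNB from control and IL-4-treated BMDMs were used, 6 files with 1 sample per factor and condition. Per the labels and methods, the authors aligned reads to mm10 with BWA 0.7.10, called peaks per sample with MACS2 2.0.10 and annotated them with HOMER 4.2. SAMtools 0.1.19 is also named in their processing notes. The deposited score has no stated unit and was read as −log10 of either a p-value or a q-value, judged from its range. Between 1 and 48 peaks per list scored below 2, and the lowest score was 1.3. The depth of the libraries is unknown, and which of the named library kits served which sample was not given in the sources used here. The deposited annotation, distance to the TSS and start coordinate were used as given, with 1 bp of uncertainty in the start. No peak (0) ended past its chromosome in GRCm38.p6, from which sequences were read.

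Peaks overlapping by at least 1 bp were merged, and each region kept the highest score per sample. The annotation and TSS distance of members and kept regions were those of their highest C/EBPα peak after IL-4. Regions losing both factors used the C/EBPα peak in control. For all regions the highest-scoring peak of any sample was used. With 1 sample per group no test was run. Shares carry Wilson 95% intervals. Motifs were searched in 200 bp around the region centre. Named regions were the 12 highest by the lower score, the genes with 3 or more regions, the genes of 8 lists, the 6 highest promoter regions, the 8 highest JUNB gains, and the 3 lowest members and nearest misses. The members and lists were chosen with earlier results of these data known, and the spacing, position, site and factor-state descriptions were added after the motif shares were seen. Tables were handled with pandas 2.3.3 and numpy 2.4.6 under Python 3.11.15, and plots were drawn with matplotlib 3.10.9. Classes and motif matching were checked on simulated data, and the number of merged regions was checked against bedtools 2.31.1 on the deposited peaks. Of 18 checks, 18 passed. The intervals were not among them. Alternatives changed the overlap rule, peak width, score threshold, list length, chromosomes, motif window and distance limits.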

Additional observations from a re-analysis of the deposited data

How the results depend on the processing

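Of 98 recomputed values, 77 moved by less than counting error or 1.5 times in a count. The number of regions stayed between 647 and 765 under direct overlap, wider joining, fixed peak width, lists cut to equal rank and autosomes alone. With both scores at least 10 it was 104. In those regions a JUNB peak was present after IL-4, and present only then, in 8.65%, promoters made up 1.92% and intergenic regions 56.7%, the median TSS distance was 30100 bp, 1 gene had several regions, the median scores were 16.0 for C/EBPα and 14.5 for IRF8, AP-1 sites were in 16.3%, STAT6-type sites in 63.5%, and 36.5% lay near a region kept by both factors. With peaks up to 500 bp apart joined, promoters made up 10.7% and STAT6-type sites were in 34.1%. Lists shortened to equal length by rank gave a median IRF8 score of 7.55. In a 100 bp window the shares were 10.7% for C/EBP, 2.4% for the ETS-IRF composite, 12.1% for AP-1 and 27.3% for the STAT6-type site, as fewer bases were searched. With promoters taken as within 2000 bp of the TSS their share was 13.7%, and 8.12% of the members lay within 2000 bp of a kept region. No paired analysis was possible because each factor and condition had 1 sample. Without replicates or read depth, a gained peak cannot be separated from a peak near the calling limit in a single sample, and 45.8% of the members had a score under 5 in at least 1 factor.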

Other observations

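Among the 48 genes nearest to exactly 2 of the regions gaining C/EBPα and IRF8, several are known in macrophages. They were picked after their values were seen. Mir511, a microRNA gene hosted by Mrc1, had regions in introns 9 and 25 of 29 of Mrc1, with C/EBPα scores of 17.96 and 9.56 and IRF8 scores of 10.40 and 6.14. Both held a STAT6-type site, as did the region upstream of Mrc1, so that all 3 gains at this locus carried one. The share over all members was 38.7%. Olr1, a receptor gene for oxidized lipoprotein, had regions in introns 5 and 3 of 7, and the latter had an IRF8 score of 34.17 and a C/EBPα score of 5.02.

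Fas, the death receptor gene, was nearest to regions 80641 and 82383 bp downstream of its TSS with IRF8 scores of 17.20 and 14.58. Il12a, the gene of the p35 subunit of interleukin 12, was nearest to regions 57865 and 28117 bp upstream with C/EBPα scores of 5.16 and 3.62. Tet2, which encodes a DNA demethylation enzyme, had regions 30855 and 210810 bp upstream with IRF8 scores of 13.08 and 6.72. Of these 6 regions, 1, the nearer of the pair at Tet2, held a STAT6-type site, beside 38.7% of all members. None overlapped a JUNB peak, and 94.1% of all members had none.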
